A study of Mus musculus with 56 samples.

Results

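The 9 genes described here encode transcription factors that define the hepatocyte, the main cell of the liver: Hnf4a, Foxa1, Foxa2, Foxa3, Cebpa, Cebpb, Nr5a2, Onecut1 and Prox1. They were chosen by name out of 25415 rows of the liver gene table, with earlier results of these data known. All 9 were above 0 in every library and were among the 24064 genes tested. Liver RNA was sequenced from 56 female C57BL/6J mice aged 9 weeks, of the wild-type inbred strain, with no allele or drug in any group. Every mouse had first been kept with free access to chow in 12 h of light per day for 7 days, and then had food only by day (daytime-restricted feeding, DRF) or only by night (nighttime-restricted feeding, NRF) for a further 7 days. NRF was the reference regimen. The 14 groups are the 2 regimens at zeitgeber time (ZT, counted in hours from lights on) 0, 4, 8, 12, 16, 20 and 24, with 4 livers in each. ZT24 is the same clock time as ZT0 from other animals. The tissue is whole liver, so for every gene fewer hepatocytes and less RNA per hepatocyte cannot be told apart.

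HNF4A is a nuclear receptor that holds a large share of hepatocyte genes on, and NR5A2 (LRH-1) is a nuclear receptor of bile acid and cholesterol metabolism. FOXA1, FOXA2 and FOXA3 are forkhead pioneer factors, which can bind nucleosomal DNA and open it for other factors. C/EBPα maintains metabolic genes of the resting hepatocyte, while C/EBPβ is an inducible relative known for responses to glucagon, cAMP, injury and inflammation. ONECUT1 (HNF-6) is a cut-homeodomain factor of liver and bile duct development and glucose metabolism, and PROX1 is a homeodomain factor of hepatoblasts that acts in adult liver largely as a corepressor of nuclear receptors. These proteins bind one another's genes and form a network known for its stability in the adult liver.

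On GRCm38, Hnf4a (ENSMUSG00000017950) lies at chr2:163506808-163572910 with 13 exons and Nr5a2 (ENSMUSG00000026398) at chr1:136842571-136960448 with 10. Foxa1 (ENSMUSG00000035451) lies at chr12:57540628-57546916, Foxa2 (ENSMUSG00000037025) at chr2:148042877-148046969 and Foxa3 (ENSMUSG00000040891) at chr7:19013284-19023538. The C/EBP genes have a single exon each, Cebpa (ENSMUSG00000034957) at chr7:35119293-35121928 and Cebpb (ENSMUSG00000056501) at chr2:167688915-167690418. Onecut1 (ENSMUSG00000043013) spans chr9:74861921-74891781 with 3 exons and Prox1 (ENSMUSG00000010175) chr1:190118035-190170714 with 6. On the opposite strand, Tmem189 covers 20.7% of the Cebpb exon bases. The libraries kept strand, but whether reads were counted by strand is not given in the sources used here, so part of the Cebpb count could come from it.

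RefSeq promoter windows were found for all 9 genes (14 windows, GRCm38.p6). The 250 bases upstream of the start are shown for 4 genes, on the strand of the gene: Cebpa, Cebpb and Hnf4a, which passed the most comparisons below, and Onecut1, which had the largest difference between regimens at a single time. Capitals mark matches, on either strand, to 8 motifs: CACGTG (the E-box of clock activators), TTANGTAA (the D-box), TGACG (the core of cAMP-response elements), TTGCNNAA (C/EBP), TGTTTAC (forkhead), ATTGATT (ONECUT), AGGTCA (the nuclear receptor half-site) and CAAAGTCCA (HNF4).
Cebpb, chr2:167688665-167688914, plus strand: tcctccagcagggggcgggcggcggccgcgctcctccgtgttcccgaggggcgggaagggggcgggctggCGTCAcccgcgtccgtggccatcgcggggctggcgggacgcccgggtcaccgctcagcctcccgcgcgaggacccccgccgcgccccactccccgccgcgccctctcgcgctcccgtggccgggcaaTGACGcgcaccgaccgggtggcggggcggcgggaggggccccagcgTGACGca
Cebpa, chr7:35119043-35119292, plus strand: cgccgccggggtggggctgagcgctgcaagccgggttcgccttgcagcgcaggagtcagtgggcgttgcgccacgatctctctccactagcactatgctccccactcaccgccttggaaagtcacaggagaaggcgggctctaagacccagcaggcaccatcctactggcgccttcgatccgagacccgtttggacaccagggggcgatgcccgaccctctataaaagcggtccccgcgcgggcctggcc
Onecut1, chr9:74861671-74861920, plus strand: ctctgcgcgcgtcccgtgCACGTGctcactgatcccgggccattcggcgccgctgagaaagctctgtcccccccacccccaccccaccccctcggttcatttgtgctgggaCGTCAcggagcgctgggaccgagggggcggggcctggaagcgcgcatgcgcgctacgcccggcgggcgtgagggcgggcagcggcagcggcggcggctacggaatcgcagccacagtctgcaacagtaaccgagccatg
Hnf4a, the downstream of its 2 windows, chr2:163546905-163547154, plus strand: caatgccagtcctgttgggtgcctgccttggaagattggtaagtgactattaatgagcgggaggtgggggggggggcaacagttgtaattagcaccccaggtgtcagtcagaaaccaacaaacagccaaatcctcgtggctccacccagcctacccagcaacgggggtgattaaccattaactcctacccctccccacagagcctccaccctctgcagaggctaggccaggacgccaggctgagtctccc
The Cebpb stretch held TGACG 3 times, at -180, -53 and -7 from the start, and 17.8% of all 32851 windows hold it at least once upstream. Onecut1 held CACGTG at -232, a motif in 6.02% of windows, and TGACG at -139. The stretches of Cebpa and of this Hnf4a start held none of the 8. Among the other windows, Foxa1 held TGTTTAC (3.17% of windows), Foxa2 and the upstream Hnf4a start held ATTGATT (2.61%), and of the 2 Nr5a2 windows 1 held TTGCNNAA (9.56%) and the other AGGTCA (14%). None held TTANGTAA (2.06%) or CAAAGTCCA (0.384%). The Cebpb stretch was 81.6% G or C and that of Cebpa 66.4%, against a median of 52.4% over all windows.

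Levels are given in scaled counts, which undo the logarithm in the authors' values library by library, with 1 unit standing for between 304 and 723 counts rebuilt from the deposited table (recovered counts). Recovered counts are not reads, so they carry no counting interval, and the spread between animals is the error used throughout. Without the 35 genes whose counts were too high to be checked, the total of a library ranged from 551920 to 663719 scaled counts. Replicates of a group correlated at 0.965 to 0.99 across genes. The marker sums that follow include genes of any depth and were not divided by exon length, so they are not parts of this total. Summed markers of hepatocytes (8 of 9 genes measured) lay between 116306 and 176380 scaled counts per library, against 30.4 to 55.9 for bile duct markers (7 of 8 measured), 429 to 611 for endothelial (8 of 8), 580.2 to 1303 for Kupffer cell (7 of 7) and 680.0 to 979.8 for stellate cell markers (7 of 7), and no marker was at 0 in any library. The 5 blood cell markers summed to group means of 504.5 to 928.7 scaled counts under DRF and 427.3 to 568.3 under NRF, and their part in the results below was not tested. Libraries also differed in how levels followed the GC content of genes. This GC index was positive on average in the ZT0, ZT4 and ZT8 groups and negative from ZT12 on under both regimens, and over the 56 libraries log2 levels of Cebpa and Cebpb correlated with it at 0.46 and 0.51.

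Divided by exon length, Hnf4a was the most abundant of the 9 at a mean of 195 scaled counts per kb. Nr5a2 followed with 47.8, Cebpa with 31.4, Prox1 with 27.1, Foxa3 with 21.2 and Cebpb with 12.4 scaled counts per kb. Foxa2, Onecut1 and Foxa1 were lowest, with means of 3.81, 2.55 and 2.01 scaled counts per kb. Because recovered counts are not reads, this order is approximate. The genes also differed in how evenly they were expressed. Between the lowest and the highest of the 14 group means, Nr5a2 moved 1.44-fold, Foxa1 1.56-fold, Cebpa 1.59-fold, Foxa2 1.66-fold, Prox1 1.77-fold and Hnf4a 1.8-fold, where the median over the 13613 genes with a mean of at least 1 scaled count was 1.65-fold. Foxa3 moved 2.41-fold, Cebpb 3.37-fold and Onecut1 5.41-fold. When the 14 groups were ordered by mean, the 4 values of neighbouring groups overlapped at all 13 steps for 6 of the 9 genes, and were apart at 1 step each for Hnf4a, Foxa3 and Nr5a2. This was not counted over all genes, so whether it is usual is not known.

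Animals of the same group were most alike for Nr5a2, whose coefficient of variation (SD divided by mean) had a median of 0.0536 over the 14 groups, and for Cebpa, with 0.0655. The median over the 13613 genes was 0.117. Onecut1 stood at the other end with 0.494, and 98.0% of those genes had a smaller value. Its level in single livers ran from 1.61 to 26.8 scaled counts. In NRF ZT12 alone, the 4 livers had 26.8, 14.9, 3.41 and 7.22 scaled counts. In DRF ZT12 they had 11.8, 20.5, 3.02 and 21.3. Livers of both regimens taken at this hour thus covered most of the range of the whole study. A gene model on the same strand, Gm20649, shares 52.8% of the Onecut1 exon bases, so counts of Onecut1 may be split with it.

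**Figure D1:**
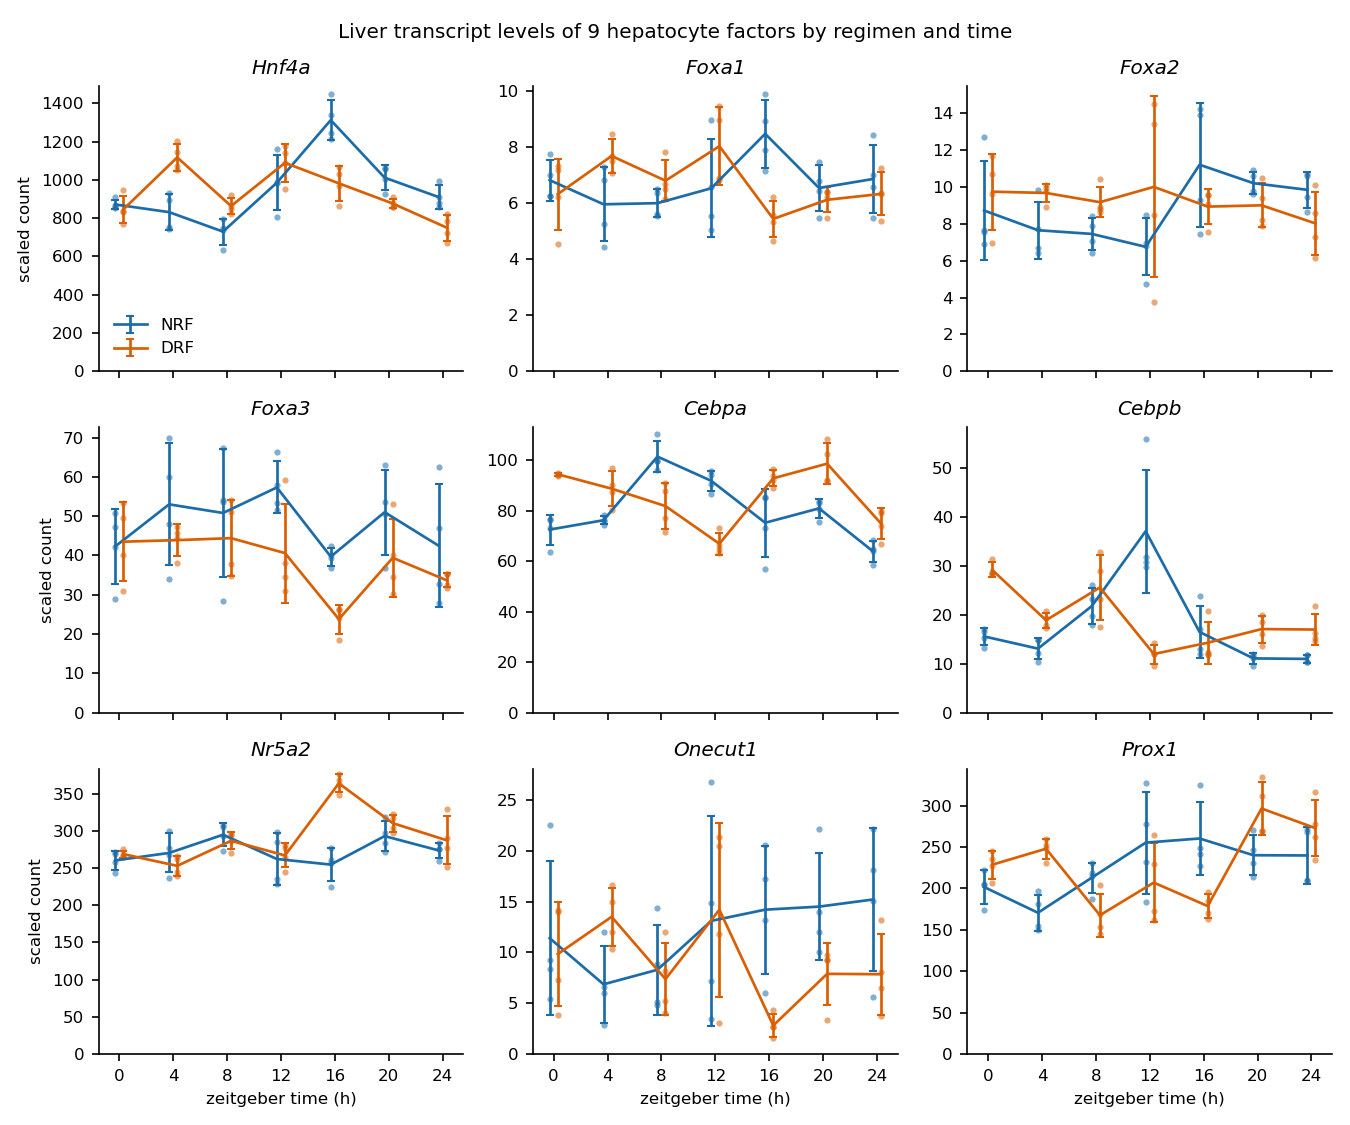
Scaled counts of the 9 genes against zeitgeber time (h) under NRF (blue) and DRF (orange). Small points are livers, lines join the means of 4 animals and bars are SDs. Cebpb peaked at ZT12 under NRF (mean 37.1) and was low at that time under DRF (12.0), Nr5a2 rose at ZT16 under DRF, and Onecut1 fell there.

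To determine whether these factors oscillated over the day, a cosine of 24 h was fitted to log2(scaled count + 1) for each gene and regimen. Of the 9 genes, 5 were rhythmic under NRF (Hnf4a, Foxa2, Cebpa, Cebpb and Prox1), where 44.0% of all genes tested were. Under DRF 7 of 9 were rhythmic (Hnf4a, Foxa1, Foxa3, Cebpa, Cebpb, Nr5a2 and Prox1), where 35.7% of all genes were. Hnf4a, Cebpa, Cebpb and Prox1 were rhythmic under both regimens, as were 23.7% of all genes. All genes tested include many of lower level than these 9. Tested alone, the 13613 genes with a mean of at least 1 scaled count held 8291 rhythmic genes under NRF and 7431 under DRF. In that setting 6 and 7 of the 9 were called. The shares of all genes given below, also beside the partner and target lists, have the same limit. Onecut1 passed under neither, although its fitted amplitudes, 0.51 ± 0.22 (SE) under NRF and 0.56 ± 0.22 under DRF on the log2 scale, were above those of most of the set.

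Hnf4a was highest at ZT16 under NRF, with 1212, 1449.9, 1341 and 1247 scaled counts, and lowest at ZT8, with 740.4, 748, 635 and 796. The 4 livers at ZT16 were all above the 4 at ZT8. Here and for the genes below, groups set side by side within a regimen were picked by their values. How often such groups are apart over all genes was not counted. Its fitted peak lay at ZT17.1 ± 0.5 (SE) with a log2 amplitude of 0.34 ± 0.05, a 1.59-fold change from trough to peak (adjusted p = 2.2e-06, limma). Under DRF the course was flatter, with high groups at ZT4 (1144, 1073, 1050.4 and 1204) and ZT12 (952, 1088, 1142 and 1175) and a lower one between them at ZT8 (919, 821, 866 and 849). The fitted peak was ZT10.8 ± 1.3 with an amplitude of 0.15 ± 0.05 (adjusted p = 0.025). This DRF rhythm lost its call under 8 of 15 alternative settings, among them each omission of a replicate, with adjusted p up to 0.31, while the NRF rhythm kept its call under all 15.

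Nr5a2, the other nuclear receptor, showed no rhythm under NRF (adjusted p = 0.8), where its 7 group means lay between 255 and 295 scaled counts. Under DRF it peaked at ZT16.9 ± 0.7 with a log2 amplitude of 0.19 ± 0.04 (adjusted p = 0.00023). The 4 DRF livers at ZT16 had 348, 369, 363 and 376 scaled counts, above every other liver of the study. At ZT20 DRF livers had 304, 323, 317 and 298, and at ZT12 they had 265, 281, 277 and 245. The rhythm passed under all 15 alternatives.

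Among the forkhead factors, Foxa2 was rhythmic under NRF with a peak at ZT19.7 ± 1.1 and a log2 amplitude of 0.28 ± 0.08 (adjusted p = 0.017), a call lost under 3 of 15 alternatives (adjusted p up to 0.093), and its fitted DRF amplitude was 0.04 ± 0.09. The difference between the 2 rhythms did not pass. Foxa2 rose from 8.49, 4.74, 6.8 and 6.96 scaled counts at NRF ZT12 to 9.29, 14.2, 7.47 and 13.9 at ZT16 and 10.9, 9.8, 10.6 and 9.6 at ZT20. The ZT12 and ZT20 livers did not overlap. Foxa1 was called rhythmic under DRF with a peak at ZT7.3 ± 1.2 (adjusted p = 0.049), and its NRF peak at ZT17.6 ± 1.2 had a similar amplitude, 0.16 ± 0.06 against 0.17 ± 0.06, but did not pass (adjusted p = 0.061). Foxa3 was called under DRF with a peak at ZT5.0 ± 1.1 and an amplitude of 0.31 ± 0.10 (adjusted p = 0.039). The DRF calls of Foxa1 and Foxa3 were lost under 12 and 9 of 15 alternatives, with adjusted p up to 0.36 and 0.21.

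Of the C/EBP genes, Cebpb had the largest called amplitude of the set, 0.62 ± 0.10 under NRF with a peak at ZT10.9 ± 0.7 (adjusted p = 4.3e-06), a 2.35-fold change from trough to peak. At NRF ZT12 the 4 livers had 29.7, 56, 30.9 and 31.8 scaled counts, while at ZT20 they had 11.6, 12.1, 11.2 and 9.59. All 4 ZT12 livers were above the 4 at ZT20. Under DRF Cebpb was highest at ZT0 (31.5, 28.4, 28.7 and 28.3) and ZT8 (17.5, 23.2, 32.8 and 29.0) and lowest at ZT12 (9.51, 12.1, 12.0 and 14.3). Its fitted DRF peak was ZT3.0 ± 1.0 with an amplitude of 0.39 ± 0.10 (adjusted p = 0.008). The DRF call was lost in the Kendall rank test and without replicate 3 of every group (adjusted p up to 0.13).

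Cebpa, more abundant and more even, peaked at ZT10.2 ± 0.8 under NRF with an amplitude of 0.23 ± 0.05 (adjusted p = 0.00025). NRF ZT8 livers, the highest NRF group, had 96.1, 99.7, 110.3 and 99.5 scaled counts. NRF ZT24 livers, the lowest, had 64.0, 68.4, 64.8 and 58.3, with no overlap between these groups picked by their values. Under DRF the peak moved to ZT21.2 ± 1.3 with an amplitude of 0.15 ± 0.05 (adjusted p = 0.041). DRF ZT20 livers had 92.0, 108.4, 102.3 and 91.8, and DRF ZT12 livers 63.2, 64.7, 66.3 and 73.2. The NRF call held under all 15 alternatives, whereas the DRF call was lost under 5, with adjusted p up to 0.23. With levels corrected for GC content, an alternative chosen after the data were seen, the Cebpa and Cebpb rhythms stayed called under both regimens.

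Prox1 peaked at ZT16.2 ± 0.9 under NRF (amplitude 0.25 ± 0.07, adjusted p = 0.0065) and at ZT22.7 ± 0.8 under DRF (amplitude 0.30 ± 0.06, adjusted p = 0.00033). DRF livers at ZT20 had 269.7, 269.9, 335 and 312 scaled counts against 171, 196, 164 and 185 just 4 h before at ZT16. The ZT16 and ZT20 livers did not overlap. Both calls held under all 15 alternatives. An antisense gene, Prox1os, covers 1.6% of its exon bases.

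**Figure D2:**
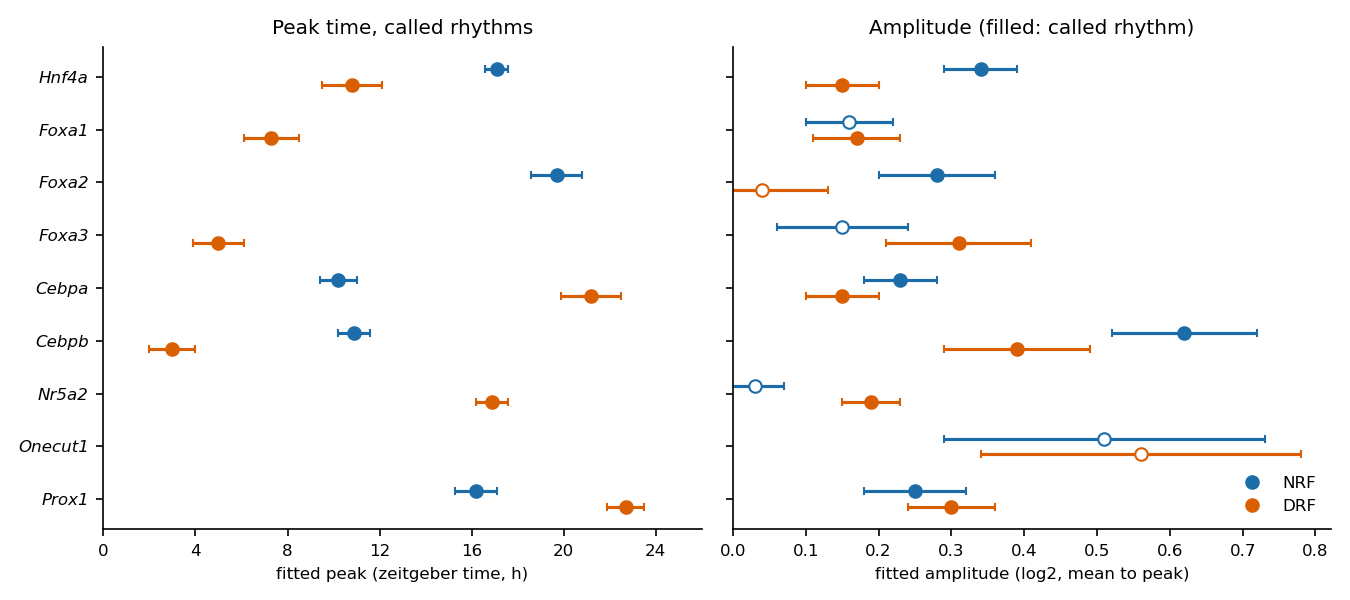
Left, fitted peak time (h) of rhythms that passed the test, under NRF (blue) and DRF (orange), and right, fitted amplitude on the log2 scale for all, with open points for rhythms that did not pass. Bars are SEs. The fitted peaks of Hnf4a, Cebpa, Cebpb and Prox1 under DRF lay between 6.3 and 11.0 h from those under NRF.

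The next question was how far the rhythms followed food or light. Measured by the clock, the rhythm differed between regimens in 7 of 9 genes, where 39.1% of all genes tested did. Foxa2 (adjusted p = 0.077) and Foxa3 (adjusted p = 0.21) did not pass. In the genes rhythmic under both regimens, peaks under DRF and NRF were 11.0 ± 1.5 h (SE) apart for Cebpa, 7.9 ± 1.2 h for Cebpb, 6.4 ± 1.3 h for Prox1 and 6.3 ± 1.4 h for Hnf4a. Over the 5709 genes of all kinds rhythmic under both, the median distance was 8.1 h, and 50.5% lay 8 to 12 h apart, 24.8% between 4 and 8 h and 24.7% within 4 h. The distance of Cebpa was within its SE of 12 h, and those of Hnf4a, Prox1 and Cebpb were further from both 0 and 12 h than their SEs. A single cosine did not closely follow the DRF course of Cebpb or Hnf4a, so their distances do not show how far the highest levels moved. DRF means of Cebpb were 29.2 at ZT0, 18.9 at ZT4 and 25.6 at ZT8, around a fitted peak at ZT3.0. Its highest NRF mean was at ZT12. DRF means of Hnf4a were 1118 at ZT4, 864 at ZT8 and 1089 at ZT12, around a fitted peak at ZT10.8.

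Measured by food time, that is, after turning the NRF rhythm by 12 h, 4 of 9 genes still differed (Hnf4a, adjusted p = 0.00028; Prox1, adjusted p = 0.0055; Cebpb, adjusted p = 0.0099; Nr5a2, adjusted p = 0.042), where 35.1% of all genes did. These 4 therefore differed between regimens on either time axis. Nr5a2 had no NRF rhythm to turn (amplitude 0.03 ± 0.04), so for it both tests mainly ask whether it was rhythmic under DRF. Both tests also take in amplitude, which for Hnf4a was 0.34 under NRF and 0.15 under DRF. A difference on both axes is therefore not a measure of peak time alone. Cebpa, Foxa1 and Onecut1 differed by the clock but no difference was detected by food time (adjusted p = 0.47, 0.73 and 0.81). For Cebpa this depended on the scale, since its rhythm differed by food time with levels corrected for GC content (adjusted p = 0.0011, an alternative chosen after the data were seen) and on the values as deposited (0.003). The distance of the peaks of Cebpa, with its SE of 1.5 h, leaves room for a shift short of 12 h. The direction of the peak shift also varied among genes. Under DRF the fitted peak of Hnf4a came 6.3 h earlier and that of Cebpb 7.9 h earlier by the shorter way round, whereas that of Prox1 came 6.4 h later and that of Cebpa 11.0 h later, a distance so close to 12 h that its direction is not determined. The food-time call of Nr5a2 was lost under 7 of 14 alternatives (adjusted p up to 0.28), that of Cebpb under 3 (up to 0.13) and that of Prox1 under 1 (0.059). By the clock, the call of Foxa1 was lost without replicate 3 of every group (adjusted p = 0.093), that of Onecut1 without replicate 1 or without replicate 2 (up to 0.12), and that of Nr5a2 without replicate 2 and on the values as deposited (up to 0.29).

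Compared hour by hour, the time with most calls in this set was ZT16, 4 h into the night. There 7 of 9 genes differed, against 15.6% of all genes tested. Without replicate 3 of every group this order turned, with 3 of 9 called at ZT16 and 4 of 9 at ZT12, where Foxa2 (adjusted p = 0.0058) and Prox1 (0.03) joined Cebpa and Cebpb. Lower under DRF were 5 (Hnf4a, Foxa1, Foxa3, Onecut1 and Prox1), where 6.62% of all genes were lower, and higher under DRF were 2 (Cebpa and Nr5a2), where 9.00% were higher. The median log2 difference over the 9 genes was -0.42 at this time and near 0 over all genes. In all 7 the 4 DRF livers did not overlap the 4 NRF livers, which held for 16.2% of all genes.

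Onecut1 had 2.64, 4.36, 2.62 and 1.61 scaled counts under DRF and 13.2, 20.6, 17.2 and 5.96 under NRF at ZT16. Its log2 difference, DRF minus NRF, was -1.93 ± 0.51 (SE), the largest of any gene of the set at any time (adjusted p = 0.0067). Hnf4a, at 1069, 966, 863 and 1031 under DRF against 1212, 1449.9, 1341 and 1247 under NRF, fell by 0.42 ± 0.09 on the log2 scale (adjusted p = 0.0005). Foxa1 had 6.2, 5.33, 4.65 and 5.56 under DRF and 7.87, 8.93, 9.89 and 7.14 under NRF, a log2 difference of -0.55 ± 0.14 (adjusted p = 0.0031).

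Foxa3 had 26.5, 24.2, 18.4 and 26.0 scaled counts under DRF at ZT16 and 36.8, 39.4, 40.2 and 42.3 under NRF, a log2 difference of -0.73 ± 0.23 (adjusted p = 0.026). Prox1 had 171, 196, 164 and 185 against 248, 227, 325 and 242, a difference of -0.53 ± 0.14 (adjusted p = 0.0061). In the other direction, Nr5a2 was higher under DRF, with 348, 369, 363 and 376 against 257, 261, 225 and 277, a difference of 0.52 ± 0.07 (adjusted p = 9.5e-07). Cebpa was also higher, with 89.0, 96.6, 93.6 and 92.0 against 73.3, 85.4, 56.9 and 85.1 (0.32 ± 0.08, adjusted p = 0.0051). Without replicate 3 of every group only Hnf4a, Nr5a2 and Onecut1 of the 9 remained called at ZT16, and these 3 were called under all 12 alternatives.

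**Figure D3:**
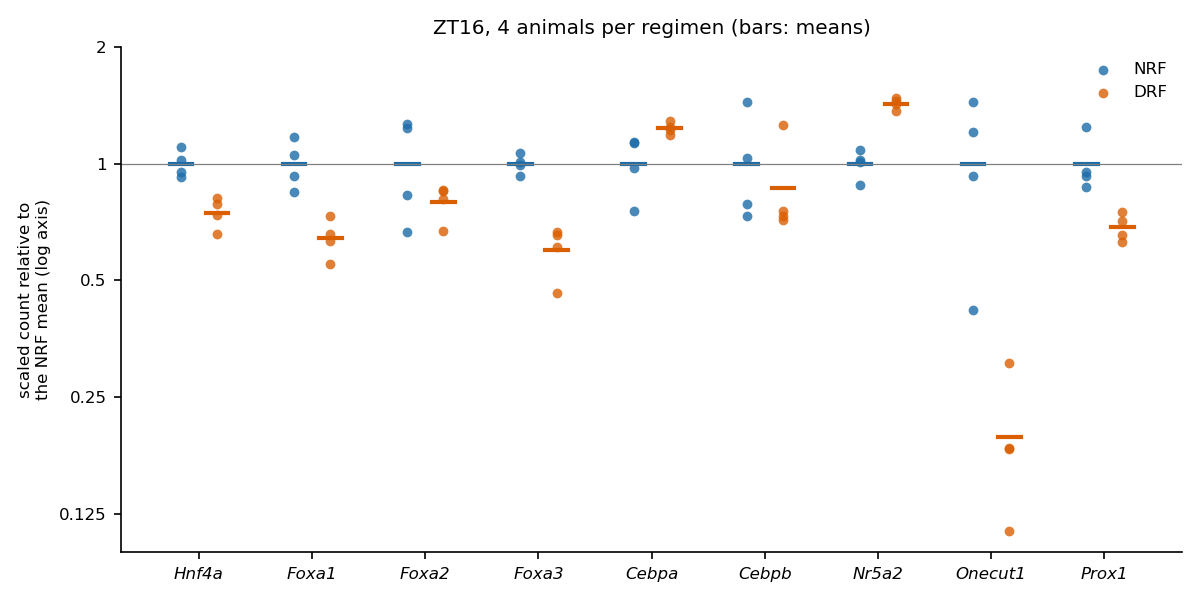
Scaled counts of each liver at ZT16 relative to the NRF mean of the gene, on a log axis, with 4 NRF livers (blue), 4 DRF livers (orange) and bars for means. DRF livers lie apart from NRF livers for 7 genes, below them for 5 and above them for Cebpa and Nr5a2.

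The C/EBP genes carried most of the differences at other times. At ZT12, the end of the light phase, Cebpb fell by 1.52 ± 0.18 (SE) on the log2 scale under DRF relative to NRF (adjusted p = 2.5e-08), a 2.86-fold difference, and Cebpa fell by 0.45 ± 0.08 (adjusted p = 6e-05). These were the only 2 of 9 called there, against 15.5% of all genes. At ZT0 the same 2 genes were higher under DRF, Cebpb by 0.87 ± 0.18 (adjusted p = 0.00047) and Cebpa by 0.38 ± 0.08 (adjusted p = 0.00058), against 16.1% of all genes called. All 4 of these calls held under all 12 alternatives. At ZT20 both were again higher under DRF (2 of 9, against 14% of genes), Cebpb by 0.56 ± 0.18 and Cebpa by 0.28 ± 0.08, and each of these calls was lost under 3 alternatives.

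At ZT4, 3 of 9 genes were called, against 20.9% of all genes, and all 3 were higher under DRF, where 11.3% of all genes were. Hnf4a had 1144, 1073, 1050.4 and 1204 scaled counts under DRF and 895, 756, 931 and 744 under NRF (0.43 ± 0.09 on the log2 scale, adjusted p = 0.00021). Prox1 had 231, 259, 253 and 248 against 182, 150.3, 196 and 154 (0.54 ± 0.14, adjusted p = 0.0032). The differences of Hnf4a and Prox1 had the opposite sign at ZT16. The third, Cebpb (0.50 ± 0.18, adjusted p = 0.045), lost its call under 6 of 12 alternatives. DRF and NRF livers were apart at ZT4 in 4 of 9 genes, these 3 and Cebpa, which was not called. How many of all genes were apart at ZT4 was not counted. At ZT8 Cebpa was lower under DRF (-0.31 ± 0.08, adjusted p = 0.0063), the 1 call of 9 against 13.2% of genes, and this call was lost under 3 of 12 alternatives (adjusted p up to 0.079). At ZT24 there were 2 calls of 9, against 14.2% of genes, with Cebpb higher (0.57 ± 0.18) and Hnf4a lower (-0.28 ± 0.09), and both were lost under 4 alternatives or fewer.

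**Figure D4:**
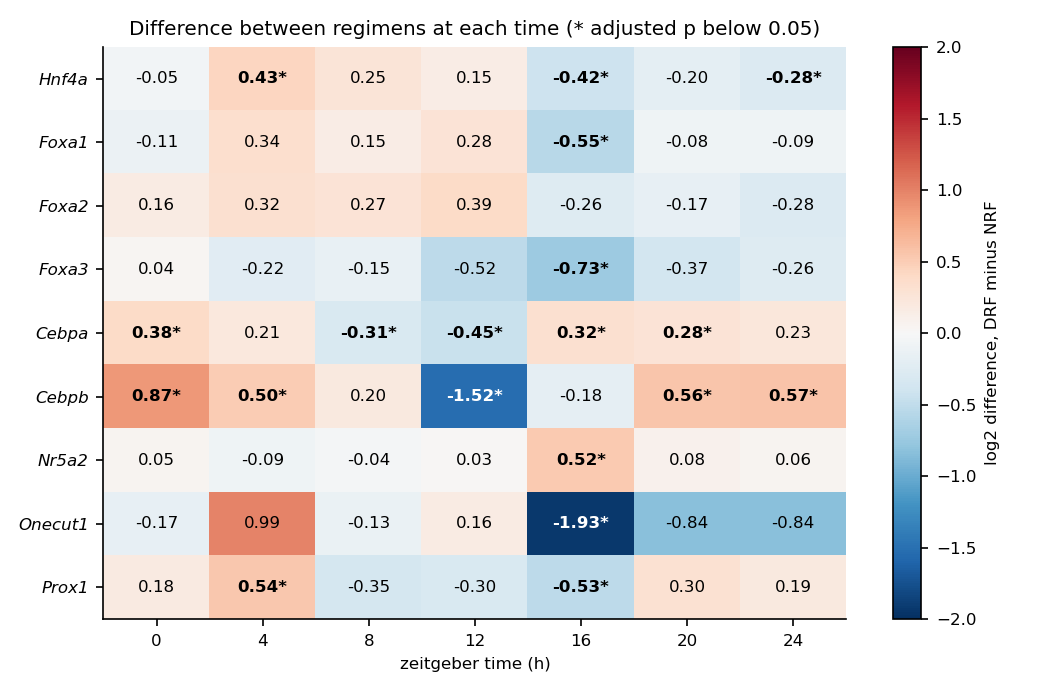
Log2 difference of each gene between regimens (DRF minus NRF) by zeitgeber time (h), with red for higher under DRF, blue for lower, and an asterisk where the adjusted p passed 0.05. The ZT16 column holds 7 calls, Cebpb runs from 0.87 at ZT0 to -1.52 at ZT12, and Foxa2 has no call.

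The mean level over the day moved little. The rhythm-adjusted mean differed in 1 of 9 genes, against 6.85% of all genes: Foxa3 was lower under DRF by a log2 difference of -0.34 ± 0.10 (SE; adjusted p = 0.018). Its 7 DRF group means lay between 23.8 and 44.4 scaled counts and its 7 NRF means between 39.7 and 57.3. The call was lost under 3 of 14 alternatives (adjusted p up to 0.18). For Hnf4a, Foxa1, Cebpb, Cebpa and Prox1 the estimated differences were between -0.05 and 0.05 on the log2 scale, with SEs of 0.10 or less. Onecut1 had the largest estimate that did not pass, -0.41 ± 0.21.

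The series also allows the same clock time to be compared a day apart. Under DRF Cebpb fell from 31.5, 28.4, 28.7 and 28.3 scaled counts at ZT0 to 14.6, 16.2, 21.8 and 15.3 at ZT24 (-0.76 ± 0.18 on the log2 scale, adjusted p = 0.015), and Cebpa fell by 0.33 ± 0.08 (adjusted p = 0.017). These were 2 of 9 genes, against 3.26% of all genes. The Cebpb call was lost under 4 of 12 alternatives (adjusted p up to 0.1) and the Cebpa call under 6, among them each omission of a replicate number (up to 0.79). Under NRF none of the 9 passed, against 8.33% of all genes, with 2 at an unadjusted p under 0.05, namely Cebpb (-0.46 ± 0.18) and Cebpa (-0.18 ± 0.08), so both genes had the same sign under both regimens. The change from ZT0 to ZT24 was not shown to differ between regimens in any of the 9 (0 called and 0 at an unadjusted p under 0.05, against 0.00416% of all genes called). The GC index of the libraries averaged 0.15 and 0.18 at DRF and NRF ZT0 and -0.22 and -0.23 at ZT24, and with levels corrected for it the Cebpa difference under DRF was -0.12 (adjusted p = 0.28).

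A component of 12 h beside the 24-h rhythm was called for Cebpa and Hnf4a under DRF (2 of 9, adjusted p = 0.0056 and 0.045), against 4.92% of all genes, and for Cebpa under NRF (1 of 9, adjusted p = 0.045), against 2.12%. The DRF group means of Cebpa at ZT0, ZT12 and ZT24, which share a phase of 12 h, were 94.4, 66.9 and 74.9 scaled counts. The 24-h rhythm is fitted beside the 12-h component, so these means need not be alike and do not test it. The Hnf4a call and the NRF call of Cebpa were lost under 7 and 6 of 12 alternatives, and with replicate number as a block their adjusted p were 0.058 and 0.055. The DRF call of Cebpa was lost on the values as deposited (adjusted p = 0.33) and without replicate 1 of every group (0.1).

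The factors that work with these 9 were followed in a list of 34 partner factors and coregulators, 33 of them measured. Rhythms were called in 24 of 33 under NRF (72.7%, against 44.0% of all genes) and in 19 under DRF (57.6%, against 35.7%). By the clock 24 differed (72.7%, against 39.1%) and by food time 15 (45.5%, against 35.1%). Ppara, the receptor that drives fatty acid oxidation in fasting, peaked at ZT11.1 under NRF and ZT23.5 under DRF with amplitudes of 0.57 ± 0.06 (SE) and 0.58 ± 0.06 (adjusted p of the difference by the clock 9.9e-16). Creb3l3, a liver factor of the fasting response, moved from ZT10.3 to ZT23.4 (adjusted p = 1.6e-12). Rxra, the common partner of nuclear receptors, moved from ZT11.8 to ZT18.9 (adjusted p = 1.5e-10), and Atf5, a bZIP factor, from ZT2.8 to ZT14.8 (adjusted p = 2.8e-11).

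In this list ZT16 was not the time of most calls. There 5 of 33 partners differed (15.2%, against 15.6% of all genes, with 3 higher and 2 lower under DRF), among them Atf5 (1.28 ± 0.21), Nr0b2 (SHP, the corepressor of NR5A2 and HNF4A; 1.45 ± 0.37), Zhx2 (-0.49 ± 0.11) and Xbp1 (-0.40 ± 0.10). At ZT12, 17 of 33 (51.5%, against 15.5% of all genes) differed, 13 of them lower under DRF, against 2 of 9 of the hepatocyte factors. The difference in these shares was not tested. In the rhythm-adjusted mean 3 partners passed (9.09%, against 6.85% of all genes), with Ppargc1a, a coactivator of gluconeogenesis, higher under DRF (0.34 ± 0.07) as was Hdac3 (0.10 ± 0.03), and Xbp1 lower (-0.21 ± 0.06).

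Known target genes of the factors were followed in a second list. Of 37 measured of 38 listed, 15 (40.5%, against 6.85% of all genes) differed in the rhythm-adjusted mean, 8 higher and 7 lower under DRF, with a median over the list of 0.05 on the log2 scale. The 4 with the smallest p were Cdh1, which encodes E-cadherin (-0.49 ± 0.06 (SE), adjusted p = 5.9e-09), Gys2, liver glycogen synthase (-0.28 ± 0.05, adjusted p = 4.4e-05), Tdo2, tryptophan dioxygenase (0.37 ± 0.06, adjusted p = 4.5e-05), and Scarb1, the HDL receptor (0.21 ± 0.04, adjusted p = 0.0005). Of the 37, 25 were rhythmic under NRF (67.6%, against 44.0% of all genes) and 23 under DRF (62.2%, against 35.7%). By the clock 20 differed (54.1%, against 39.1%), and 25 differed by food time (67.6%, against 35.1%).

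At ZT16, 11 of 37 target genes differed (29.7%, against 15.6% of all genes), 8 higher and 3 lower under DRF, where 9.00% of all genes were higher and 6.62% lower. Gys2 fell by 1.67 ± 0.11 (SE) on the log2 scale and Abcg5, a sterol exporter, by 0.77 ± 0.14, whereas Gjb1 (connexin 32) and Apoh (an apolipoprotein) were each higher by 0.38. Gys2 peaked at ZT13.6 under NRF and ZT2.7 under DRF, and Abcg5 at ZT10.4 and ZT2.1. The peaks of Cps1, the entry enzyme of the urea cycle, were closer by the clock, at ZT19.3 under NRF and ZT18.3 under DRF, as were those of Tdo2, at ZT17.1 and ZT19.0. Both differed by food time (adjusted p = 1.7e-07 for Cps1 and 2e-10 for Tdo2).

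**Figure D5:**
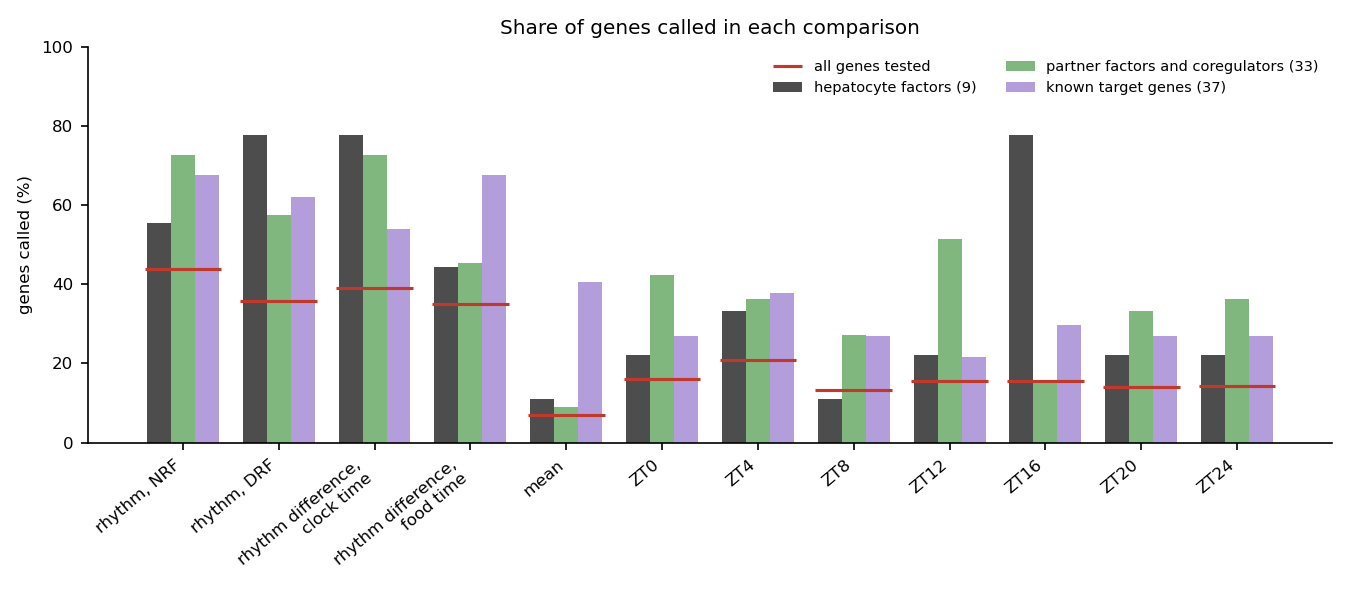
Share of genes called (%) in each comparison among the 9 hepatocyte factors, 33 measured partner factors and 37 measured target genes (bars), with red lines for all genes tested. The hepatocyte factors reach 77.8% at ZT16, where partners stand at 15.2% and all genes at 15.6%.

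The 9 genes did not share one course. Over the 14 group means, which rest on the same 56 libraries for every gene, the 36 pairs correlated between -0.78 and 0.74 on the log2 scale. Foxa1 and Onecut1 were the most alike (0.74), followed by Hnf4a and Foxa1 (0.72) and by Cebpa and Cebpb (0.61). Nr5a2 ran opposite to Onecut1 (-0.78), Foxa1 (-0.70) and Foxa3 (-0.64). Among animals of the same group, Foxa1 and Onecut1 again varied together (0.66 over 56 deviations from group means), as did Foxa1 and Foxa2 (0.52) and Hnf4a and Prox1 (0.48).

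Among 11619 other protein-coding genes with a mean of at least 1 scaled count, those whose 14 group means were most like Cebpb were Prr3 (r = 0.95) and Hand2 (0.93), and those most like Hnf4a were P4ha1 (0.92) and Zfp664 (0.90). For Onecut1 they were Dcp1a (0.91) and Spata5 (0.90), for Nr5a2 Dlg3 (0.91) and D030056L22Rik (0.89), and for Foxa1 Zmynd19 (0.90) and Gcc1 (0.89). For Cebpa they were Csk (0.89) and Hist3h2a (0.88), for Prox1 Timm10 (0.89) and Rybp (0.88), and for Foxa3 Ica1 (0.85) and Dgkz (0.83). For Foxa2 Zfp969 (0.89) is given. The highest of so many correlations over 14 points is large for most genes, so these names are descriptions.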

How the data were processed

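The authors deposited a gene table named TPM, made with featureCounts 1.5.0-p3 on GRCm38.p6 (mm10) per the labels' processing notes. Its deposited values, made by the authors, are not linear in reads, so they are treated as a score. The deposited value times exon length (GENCODE vM21) followed a·ln(1 + f·k) with whole counts k, and the product f·k is the scaled count. Genes whose counts could not be rebuilt (183) or that had no annotated length (1168) were left out, which left 24064. Among those kept were 890 genes for which a length was searched for. Also kept were the 35 genes whose counts were too high to be checked, so their results rest on unchecked counts. In genes left out of the fit, 95.1% to 99.0% of values lay within 0.05 of a whole number, where 10% would by chance. These shares do not cover the deepest counts, among them those of Hnf4a and Cps1. Hnf4a is so deep that a tolerance of 0.2 was used. The design named linear TPM, and its tests were applied to scaled counts.

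Log2(scaled count + 1) was tested with limma 3.58.1 (trended moderated F and t statistics, Benjamini-Hochberg over all genes, threshold 0.05) in a cosine model with a mean and a 24-h rhythm per regimen over 56 libraries, and in a model of 14 group means. Tests were checked on simulated data. All 9 genes were named in every comparison. From the partner and target lists at most 4 genes that passed were named per comparison, by smallest adjusted p, and for likeness the 2 protein-coding genes with the highest Pearson r of group means (1 gene is not reported here). The genes, lists and motifs were chosen with earlier results of these data known. Among the listed genes, Ttr and Nr3c1 were not analysed here. Ddit3 has 2 identifiers and the longer was used. Same-numbered animals are different mice, and their deviations correlated at a median of 0.006, so numbers do not pair samples. Scaled counts carry no length correction, so levels of the 9 genes were compared with one another only after division by exon length. The summed cell type markers were not divided by length. The deposited transcript and circular RNA tables were not used here. Alternatives changed the scale, pseudocount, filter, normalization, length or GC correction, moderation and libraries.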

Additional observations from a re-analysis of the deposited data

Results flagged for a closer look

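In 5 of the 126 sets of 4 livers (9 genes in 14 groups), 1 liver lay further from the other 3 than Dixon's 95% critical value for 4 samples allows, and chance gives about 1 in 20. Cebpb had 3 of them. Replicate 2 of NRF ZT12 had 56 scaled counts beside 29.7 to 31.8, replicate 1 of DRF ZT16 had 20.8 beside 11.8 to 12.5, and replicate 1 of DRF ZT0 had 31.5 beside 28.3 to 28.7. Foxa2 had 12.7 in replicate 3 of NRF ZT0, where the others had 6.9 to 7.68, and Onecut1 had 3.33 in replicate 2 of DRF ZT20, where the others had 9.22 to 9.77.

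The 24-h rhythm by the clock differed between the regimens, by limma's test of the difference itself, in 7 of the 9 genes, against 39.1% of all genes tested. The adjusted p was 3.3e-06 for Cebpb, 3.3e-05 for Cebpa, 0.00012 for Hnf4a, 0.00037 for Prox1, 0.0023 for Nr5a2, 0.0044 for Foxa1 and 0.017 for Onecut1.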

How the results depend on the processing

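Of 1836 values for single genes under the alternatives, 1683 kept their side of the threshold, 112 were no longer past it and 41 newly passed it. The F tests of rhythms, rhythm differences and 12-h components have no direction, so these counts describe the side of the threshold only. Replicate number as a block, although numbers do not pair the animals, ended 3 calls, the DRF rhythm of Foxa1 (adjusted p = 0.056) and the 12-h components of Hnf4a under DRF (0.058) and Cebpa under NRF (0.055), leaving 1 and 0 of the 9 genes with a 12-h component. With that block, a 12-h component was called in 1171 of all genes under DRF and 504 under NRF. The GC correction was chosen after seeing the data.

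On the values as deposited, 12-h components were called in 470 genes under DRF (1183 in the report's model) and 189 under NRF (510), with 0 of the 9 genes in either. There, 4 of 9 were rhythmic under DRF (7 in the report), with 8434 of all genes. Of the 9, 0 differed in mean and at ZT8, 1 differed at ZT20 and 1 at ZT24. ZT24 differed from ZT0 in 1890 genes and 1 of 9 under DRF and in 6043 genes and 3 of 9 under NRF. With length correction the ZT24 to ZT0 counts were 5806 genes under DRF (784 in the report) and 7561 under NRF (2005), and 13460 genes differed by food time (8436). With GC correction they were 3717 and 5132 genes, and 1 of 9 under DRF. Of the 9, a 12-h component was called under NRF in 3 with the filter of a mean of 1 (622 of 13613 genes tested) and in 2 with median-of-ratios scaling (441 of 24064). It was called under NRF in 3 with length correction (442 of 24064) and in 3 with GC correction (465). Under DRF it was called in 1 with GC correction (1168 of 24064). At ZT8, 2 of 9 were called with the filter, median-of-ratios scaling, length correction, GC correction and robust moderation, and at ZT4 5 with the filter. In the report's model 13.2% of all 24064 genes were called at ZT8 and 20.9% at ZT4. The filter tests only 13613 genes, so these shares are not a baseline for its counts. Without ZT0 3 of 9 were rhythmic under DRF, with 7703 of all genes. In the Kendall rank test 2 of 9 were, with 6331 of all genes. That test called 6480 genes rhythmic under NRF (10580 in the report).

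Without each replicate number in turn, the counts of genes and of the 9 ran as follows. Rhythms under DRF were called in 6402 to 6836 genes and 2 to 4 of the 9, and under NRF in 8556 to 9085 and 4 to 6. The rhythm difference ran over 7662 to 8031 and 5 to 7 by the clock, and 6017 to 6784 and 2 to 3 by food time. The mean gave 723 to 1331 and 0 to 1. Single times gave 2749 to 2965 and 2 to 2 at ZT0, 3171 to 4635 and 2 to 3 at ZT4, 1919 to 2476 and 0 to 1 at ZT8, 2395 to 3129 and 2 to 4 at ZT12, 2202 to 3019 and 3 to 7 at ZT16, 2196 to 2571 and 0 to 1 at ZT20, and 2120 to 2749 and 0 to 1 at ZT24. The 12-h component gave 313 to 802 and 0 to 1 under DRF and 144 to 234 and 0 to 0 under NRF. ZT24 against ZT0 gave 113 to 576 and 0 to 1 under DRF and 187 to 2651 and 0 to 1 under NRF. The causes of these changes were not tested, beyond the smaller number of animals.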

Other observations

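Onecut1 differed so much among livers of the same group that its likeness to other genes was also taken over the 56 deviations from group means, a step chosen after its values were seen. The genes that varied most with it were Ppan (r = 0.79), Rrs1 (0.72), Foxa1 (0.66), Alas1 (0.65) and Mphosph10 (0.65). Ppan, Rrs1 and Mphosph10 encode proteins of ribosome assembly, and Alas1 the first enzyme of haem synthesis. Fbxo32 (-0.69), a ubiquitin ligase subunit of atrophy, Pik3c3 (-0.67), Stard13 (-0.67), Sgms2 (-0.66) and Grb7 (-0.66) ran most opposite. These values are descriptions, since they are the highest among all genes searched over the same libraries.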
